A study of Mus musculus with 8 samples.

Results

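The 9 genes described here are markers and regulators of the primitive endoderm lineage, namely Gata4, Gata6, Sox17, Sox7, Foxa2, Pdgfra, Dab2, Sparc and Srgn. They were taken by name, as the genes whose Ensembl identifier carries one of these symbols in GENCODE M21, and all 9 were found among the 37263 genes of the count tables. RNA was sequenced from E14 ESCs, a mouse ESC line of strain 129/Ola grown without feeders, at 4, 16, 24 and 32 hr after serum medium with LIF was exchanged for 2i. 2i is serum-free and holds LIF, PD0325901, which inhibits MEK, and CHIR99021, which inhibits GSK3, and these agents were present in all 8 libraries. At each time 1 library came from 2i alone and 1 from 2i with 17 µM vitC (L-ascorbic acid). There are thus no replicate cultures, and no serum library was analysed here, so that the earliest reference is 4 hr in 2i.

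Primitive endoderm is the extraembryonic lineage that separates from the epiblast in the inner cell mass of the blastocyst and later forms the visceral and parietal endoderm of the yolk sac. Epiblast precursors secrete FGF4, which acts through FGFR1, FGFR2, MEK and ERK to favour expression of GATA6, and the lineage then expresses PDGFRA, SOX17, GATA4 and, as the epithelium forms, SOX7 and DAB2. Inhibition of MEK directs inner cell mass cells to the epiblast instead, and ESCs in serum are known for rare cells that express primitive endoderm genes. These statements are background, and the time course below is a bulk measurement, in which fewer cells of a type and less RNA per cell cannot be told apart.

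The libraries held 12940716 to 18434932 counts in 2i and 4753528 to 13157570 with vitC, of which the 16 and 24 hr libraries with vitC were the shallowest (6969300 and 4753528). A count of 3, used as the lower limit of what a library can show, was 0.163 to 0.631 CPM (counts scaled to library depth). Lars2, Gm23935 and ENSMUSG00000093077, whose counts move together, took 0.0113 to 0.0277% of the counts at 4 hr and 0.206 to 7.11% later. The 4 and 24 hr libraries ran on lane 8 and the 16 and 32 hr libraries on lane 7. The lane is thus shared by 24 and 4 hr and by 32 and 16 hr. For 16 or 32 hr against 4 hr, time and lane cannot be told apart. The ESC factors Pou5f1 (280 to 505 CPM), Nanog (347 to 569 CPM) and Sox2 (120 to 325 CPM) were abundant in every library. Of 29 other extraembryonic endoderm genes in the tables, 10 were under 1 CPM in every library, among them Ttr with 0 counts in all 8 and Afp with at most 2. Others of these genes were abundant, such as Lrp2 (101.02 to 214 CPM) and Apoe (211 to 493 CPM), chosen here after their values were seen, and the 29 summed to 1362 to 2572 CPM. Of the 2572 CPM, in 2i at 4 hr, 741 and 761 CPM were Krt8 and Krt18, which trophectoderm also expresses.

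Most of the signal of the 9 genes came from 1 of them. Of their 41722 counts over all libraries, 95.02% fell on Sparc, which encodes a secreted matrix glycoprotein. Per exon length, the median level over the 8 libraries was 104 RPKM for Sparc, 1.40 RPKM for Dab2, 0.53 for Gata4, 0.47 for Pdgfra, 0.36 for Srgn, 0.28 for Sox17, 0.18 for Foxa2, 0.13 for Gata6 and 0.035 for Sox7. Sparc ranked 341st of 14519 tested genes with an exon length, and 97.7% of them had a lower median. Dab2 exceeded 23.5% of the tested genes, Gata4 11.5%, Pdgfra 10.2%, and Gata6 only 1.72%. The ranges of Sparc (87.9 to 128 RPKM) and Dab2 (0.745 to 2.69 RPKM) did not overlap each other or that of Gata4 (0.110 to 0.641 RPKM). The highest Pdgfra library (1.02 RPKM) lay within the range of Dab2. Below Dab2, each neighbour in the order overlapped the next in range over the 8 libraries.

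**Figure D1:**
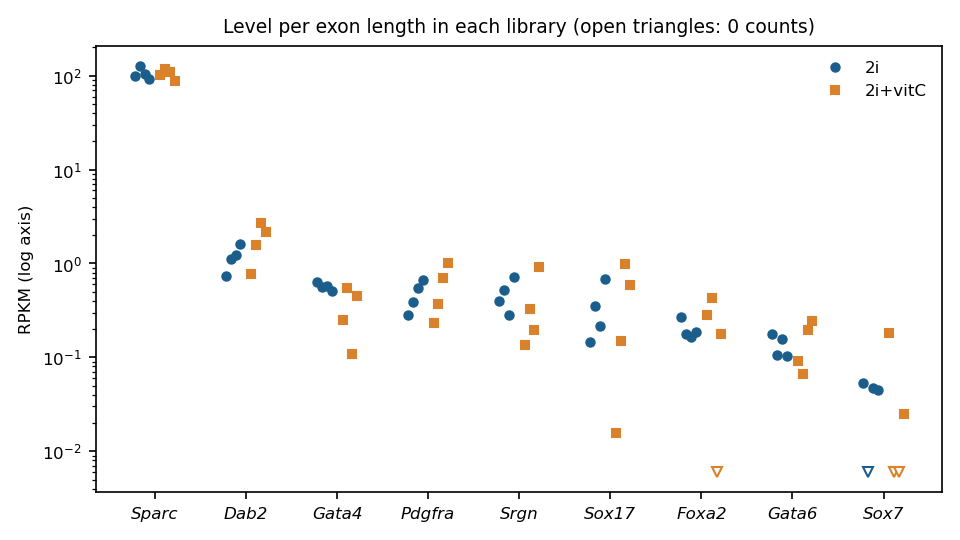
Level of each of the 9 genes per exon length (RPKM with TMM scaling, log axis) in the 4 libraries in 2i (circles) and the 4 with vitC (squares), drawn within each group in the order 4, 16, 24 and 32 hr. Sparc lies at 87.9 to 128 RPKM, Dab2 at 0.745 to 2.69 RPKM, and the other 7 genes at or below 1.02 RPKM, with open triangles at the bottom for libraries without a count of Sox7 or Foxa2.

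The question put to the time course was which of these genes changed as the cells went through the early serum-to-2i transition, and whether vitC altered their levels. Time was tested with edgeR's quasi-likelihood model, in which treatment and time act additively on all 8 libraries. Its error term measures how far 2i and 2i with vitC depart from parallel courses. With 1 library per condition, no replicate cultures measure their spread, which cannot be told apart from such a departure. The filter of at least 1 CPM in at least 2 libraries left 14931 genes, including 7 of the 9. Sox7 and Foxa2 did not pass, and Sox17, Gata6 and Srgn reached 1 CPM in 5, 4 and 3 libraries, so that they could be tested through some libraries only. For Sox17 and Srgn none of these was a 4 hr library. At 4 hr Sox17 was at 0.698 CPM in 2i and 0.0746 CPM with vitC, and Srgn at 0.873 and 0.298 CPM. A rise of either gene from 4 hr is thus not independent of the filter. Levels below are CPM with edgeR's TMM scaling unless a count is named. Intervals on single counts or on the ratio of 2 libraries are exact 95% intervals. They cover counting error only, because each condition has 1 library. Reads were not tagged and PCR copies are counted, so that even this error may be understated.

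Between 4 and 24 hr, Pdgfra and Dab2 rose, and none of the 7 tested genes fell, by an adjusted p under 0.05. These 2 higher calls stand beside a background of 11.5% of all tested genes called higher and 8.98% lower (20.5% in either direction). Between 4 and 32 hr, Sox17, Pdgfra and Dab2 rose and none fell, against 13.5% of all tested genes called higher and 11.8% lower (25.3% in either direction). Pdgfra and Dab2 reached the level of the filter in all 8 libraries, Sox17 only in libraries later than 4 hr. Between 4 and 16 hr, 0 of the 7 passed (2 at an unadjusted p under 0.05, 0 with DESeq2) in a comparison that called 16.4% of all genes (9.16% higher, 7.24% lower). There 4804 of all 14931 tested genes had an unadjusted p under 0.05 in edgeR, and DESeq2 called 2376. Between 16 and 32 hr, 0 of the 7 passed (2 at an unadjusted p under 0.05, 0 with DESeq2), where 0.583% of all genes passed (0.335% higher, 0.248% lower). In this comparison 2129 of the 14931 genes had an unadjusted p under 0.05 in edgeR, and DESeq2 called 239. After a correction for GC content and exon length, the all-gene split of higher to lower calls turned from 1720 and 1341 to 1398 and 1713 at 24 against 4 hr, from 2021 and 1764 to 1649 and 1969 at 32 against 4 hr, and from 1367 and 1081 to 1136 and 1423 at 16 against 4 hr. The median log2 fold change of the 7 genes was 0.32 for 24 against 4 hr, 1.28 for 32 against 4 hr and 0.90 for 32 against 16 hr, and the medians over all tested genes were 0.0077, 0.0048 and -0.0016. Sox17 and Srgn are among the 7 and passed the filter only through libraries later than 4 hr. The medians of the 7 against 4 hr therefore depend in part on the filter. The comparisons with 4 hr share the same 4 hr libraries and are not independent of each other.

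**Figure D2:**
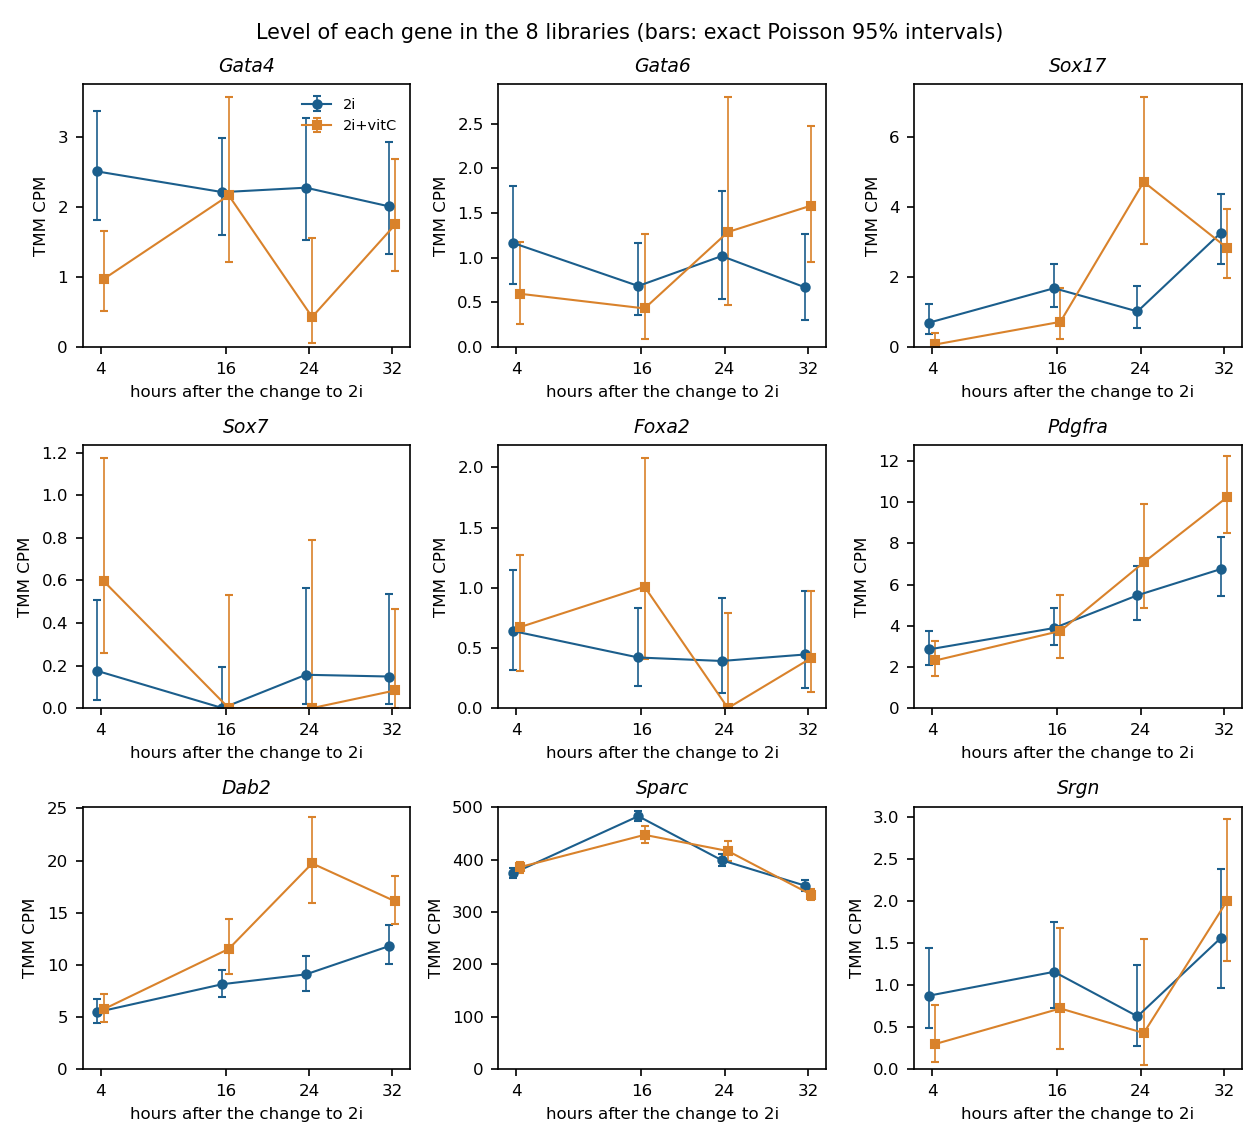
Level of each gene (CPM with TMM scaling, linear axis from 0) against hours after the change to 2i, in 2i (circles) and 2i with vitC (squares), 1 library per point, with exact Poisson 95% intervals as bars. Pdgfra and Dab2 lie highest at 24 or 32 hr in both treatments, Sparc is highest at 16 hr in both, and the other 6 genes stay below 5 CPM with wide intervals.

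Pdgfra (ENSMUSG00000029231) encodes the PDGF receptor alpha, a receptor tyrosine kinase used as a surface marker of early primitive endoderm. In 2i its counts were 49, 74, 70 and 91 at 4, 16, 24 and 32 hr, or 2.85, 3.89, 5.48 and 6.75 CPM. With vitC they were 31, 26, 33 and 123, or 2.31, 3.75, 7.08 and 10.2 CPM. The level was thus higher at each later time than at the one before it in both treatments, and the lowest of the 24 and 32 hr libraries lay above the highest at 4 and 16 hr. The log2 fold change was 1.24 ± 0.35 (SE, adjusted p = 0.027) for 24 against 4 hr and 1.68 ± 0.34 (adjusted p = 0.0039) for 32 against 4 hr. From 16 to 32 hr, on the other lane, it was 1.12 ± 0.34 (adjusted p = 0.16), which did not pass. Within each treatment alone, the log2 ratio of 24 to 4 hr was 0.94 (0.40 to 1.5) in 2i and 1.61 (0.86 to 2.37) with vitC. The log2 ratio of 32 to 16 hr was 0.80 (0.34 to 1.26) in 2i and 1.45 (0.83 to 2.12) with vitC.

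The call of Pdgfra at 24 hr was lost without the 2i library at 24 hr (adjusted p = 0.10), the vitC library at 4 hr (adjusted p = 0.19) or the vitC library at 24 hr (adjusted p = 0.18). It was also lost after a correction for GC content and exon length (0.97 ± 0.35, adjusted p = 0.068) and with the share of counts on the Lars2 features as a covariate (1.17 ± 0.69, adjusted p = 0.47). At 32 hr the call was lost without the vitC library at 32 hr (1.39 ± 0.42, adjusted p = 0.064). M21 places Gm42802 and Gm42803 on the opposite strand over exons of Pdgfra, and neither identifier is in the tables. The library kit does not mark strand, so reads of these genes and of Pdgfra cannot be told apart.

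Dab2 (ENSMUSG00000022150) encodes an endocytic adaptor, required in the embryo for the organization of the visceral endoderm. Its counts in 2i were 94, 155, 116 and 159, or 5.47, 8.15, 9.08 and 11.8 CPM in order of time. With vitC the counts were 77, 80, 92 and 193, or 5.74, 11.5, 19.7 and 16.1 CPM. Both 4 hr libraries lay below all 6 later ones, and the highest value was that of vitC at 24 hr. The log2 fold change was 1.25 ± 0.28 (adjusted p = 0.0095) for 24 against 4 hr and 1.28 ± 0.28 (adjusted p = 0.0056) for 32 against 4 hr. It was 0.77 ± 0.28 (adjusted p = 0.076) for 16 against 4 hr, short of the threshold except without the filter on low counts (0.78 ± 0.28, adjusted p = 0.042). For 32 against 16 hr it was 0.51 ± 0.27 (adjusted p = 0.42). Within a treatment, the log2 ratio of 24 to 4 hr was 0.73 (0.33 to 1.14) in 2i and 1.78 (1.33 to 2.24) with vitC.

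The call of Dab2 at 24 hr was lost without the vitC library at 4 hr (0.95 ± 0.34, adjusted p = 0.11), without that at 24 hr (0.86 ± 0.34, adjusted p = 0.16) and with the Lars2 share as a covariate (1.31 ± 0.54, adjusted p = 0.28). At 32 hr it was lost without the 2i library at 32 hr (adjusted p = 0.067) or the vitC library at 4 hr (adjusted p = 0.074). Gm18888 lies on the opposite strand over Dab2 exons in M21 and is likewise not among the identifiers. The correlation of Dab2 with Pdgfra over the 8 libraries was r = 0.87 on log2 CPM, a description of libraries that share time, lane and depth.

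The stretches upstream of the annotated starts of these genes are shown because Pdgfra and Dab2 were the 2 genes that rose at both 24 and 32 hr. They are RefSeq sequences of build GRCm38.p6, read 5′ to 3′ on the strand of the gene, and capitals mark a match to a motif searched on both strands. For zinc-finger factors such as Gata4 and Gata6 the letters searched were TGATAA, or with another first base AGATAA. For SOX factors ATTGT was searched, for FOXA factors the longer TGTTTAC, and for ETS factors such as Etv4 the core GGAAGT.
Pdgfra, chr5:75152001-75152250, plus strand: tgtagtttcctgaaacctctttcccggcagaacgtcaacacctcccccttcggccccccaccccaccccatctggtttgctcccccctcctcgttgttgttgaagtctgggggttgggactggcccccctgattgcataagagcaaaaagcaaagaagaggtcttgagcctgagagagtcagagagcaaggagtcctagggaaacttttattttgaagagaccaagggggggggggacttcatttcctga
Dab2 start 1, chr15:6299539-6299788, plus strand: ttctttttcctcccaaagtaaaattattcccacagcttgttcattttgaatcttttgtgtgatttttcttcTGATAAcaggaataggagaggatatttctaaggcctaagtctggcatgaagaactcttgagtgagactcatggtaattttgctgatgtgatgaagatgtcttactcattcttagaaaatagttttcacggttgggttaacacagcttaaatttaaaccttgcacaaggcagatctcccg
Dab2 start 2, chr15:6386498-6386747, plus strand: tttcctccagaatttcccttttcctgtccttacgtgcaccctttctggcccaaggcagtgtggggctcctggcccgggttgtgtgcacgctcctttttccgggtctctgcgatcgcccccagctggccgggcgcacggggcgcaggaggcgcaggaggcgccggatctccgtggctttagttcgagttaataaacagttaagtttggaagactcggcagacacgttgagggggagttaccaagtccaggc
The first Dab2 start had TGATAA at -179 from the start, and no searched motif was in the Pdgfra window or at the second Dab2 start. Of all 32851 RefSeq promoter windows of this length, 7.94% held TGATAA and 16.6% held at least 1 of both GATA-factor motifs. Windows were given for 5 of the 9 genes. The 3 windows of Foxa2 held AGATAA at -183 in the third and GGAAGT at -144 and -113 in the second, and the first of 2 Srgn windows held GGAAGT at -145 and ATTGT at -37. The Sparc window held none of the letters searched. Of all windows 19.7% held GGAAGT, and the share was 27.7% for ATTGT, 9.99% for AGATAA and 3.17% for TGTTTAC. A match of letters describes the sequence and is not a measurement of binding.

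Sox17 (ENSMUSG00000025902) encodes an HMG-box transcription factor of the SOXF group that acts in primitive and definitive endoderm. Its counts in 2i were 12, 32, 13 and 44, or 0.698, 1.68, 1.02 and 3.27 CPM. With vitC they were 1, 5, 22 and 34, or 0.0746, 0.721, 4.72 and 2.83 CPM. Both libraries at 32 hr were above both at 4 hr and both at 16 hr, whereas at 24 hr the 2i library was low and the vitC library was the highest of all 8. The log2 fold change for 32 against 4 hr was 2.89 ± 0.88 (adjusted p = 0.030). Neither 4 hr library reached the level of the filter, so this call is not independent of it. For 24 against 4 hr it was 2.67 ± 0.94 (adjusted p = 0.062), which did not pass in edgeR but did in DESeq2 (adjusted p = 0.013) and without the filter on low counts (adjusted p = 0.0018).

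The 2 treatments gave different values of Sox17 at 24 hr. In 2i alone the log2 ratio of 24 to 4 hr was 0.54 (-0.71 to 1.81), and with vitC it was 5.98 (3.35 to 11.35) on 22 counts against 1. Between 16 and 32 hr, within a lane, the log2 ratio was 0.96 (0.27 to 1.66) in 2i and 1.97 (0.61 to 3.69) with vitC, while the fit over both gave 1.26 ± 0.79 (adjusted p = 0.50). The call at 32 hr was lost without the 2i library at 32 hr (adjusted p = 0.17), the vitC library at 4 hr (1.97 ± 0.92, adjusted p = 0.18) or the vitC library at 32 hr (adjusted p = 0.11). Gm37587 lies on the opposite strand over Sox17 exons in M21, and its reads cannot be told apart from those of Sox17.

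Gata6 (ENSMUSG00000005836) encodes the zinc-finger factor placed earliest in the primitive endoderm programme. Its counts were 20, 13, 13 and 9 in 2i and 8, 3, 6 and 19 with vitC. On the CPM scale these were 1.16, 0.683, 1.02 and 0.668 in 2i and 0.597, 0.432, 1.29 and 1.58 with vitC. The values of the times overlapped, and the highest library was vitC at 32 hr. Its log2 fold change was 0.32 ± 0.75 (adjusted p = 0.80) for 24 against 4 hr and 0.31 ± 0.72 (adjusted p = 0.79) for 32 against 4 hr. In 2i the log2 ratio of 32 to 4 hr was -0.80 (-2.12 to 0.40), and with vitC it was 1.41 (0.15 to 2.81). 1010001N08Rik overlaps Gata6 exons on the opposite strand in M21.

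Gata4 (ENSMUSG00000021944), a related zinc-finger factor that follows Gata6 in the lineage, was counted 43, 42, 29 and 27 times in 2i. With vitC its counts were 13, 15, 2 and 21. These corresponded to 2.50, 2.21, 2.27 and 2.00 CPM in 2i, a narrow range, and to 0.970, 2.16, 0.429 and 1.75 CPM with vitC. The 2 low libraries were those with vitC on lane 8. For Gata4 the log2 fold change was -0.26 ± 0.62 (adjusted p = 0.80) for 24 against 4 hr and 0.20 ± 0.58 (adjusted p = 0.83) for 32 against 4 hr. In 2i the log2 ratio of 32 to 4 hr was -0.32 (-1.07 to 0.41), so that neither a fall by 1 nor a rise by 0.4 on the log2 scale was outside counting error.

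Foxa2 (ENSMUSG00000037025), a forkhead factor of endoderm and midline tissues, and Sox7 (ENSMUSG00000063060), a SOXF factor of later primitive endoderm, were near the lower limit of the libraries. Foxa2 had 11, 8, 5 and 6 counts in 2i and 9, 7, 0 and 5 with vitC. Its highest level was 1.01 CPM, with vitC at 16 hr, and the exact 95% interval of the 0 at 24 hr reached 0.791 CPM. Sox7 had 3, 0, 2 and 2 counts in 2i and 8, 0, 0 and 1 with vitC, or at most 0.597 CPM. No interval for a ratio of 2 libraries excluded 0 on the log2 scale for either gene, so a difference in time or with vitC was not detectable at this depth. Fitted without the filter, neither gene had an adjusted p under 0.05 in any comparison.

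Sparc (ENSMUSG00000018593) is a matrix glycoprotein made in large amounts by parietal endoderm and by many mesenchymal cells. Its counts were 6429, 9190, 5095 and 4720 in 2i and 5167, 3104, 1942 and 3998 with vitC. Scaled to depth, the levels were 374, 483, 399 and 350 CPM in 2i and 385, 447, 417 and 333 CPM with vitC. Both treatments showed the same order, with 16 hr highest, then 24 and 4 hr, and 32 hr lowest. These differences were small and did not pass. The log2 fold change was 0.29 ± 0.13 (adjusted p = 0.14) for 16 against 4 hr, 0.10 ± 0.13 (adjusted p = 0.62) for 24 against 4 hr and -0.15 ± 0.13 (adjusted p = 0.42) for 32 against 4 hr. For 32 against 16 hr it was -0.45 ± 0.13 (adjusted p = 0.15), with single-treatment ratios of -0.46 (-0.51 to -0.41) in 2i and -0.43 (-0.49 to -0.36) with vitC. The 16 hr level in 2i was 499 CPM when counts were divided by the library total alone.

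Srgn (ENSMUSG00000020077), the core protein of the secretory granule proteoglycan serglycin and a marker shared with blood cells, had 15, 22, 8 and 21 counts in 2i and 4, 5, 2 and 24 with vitC. This was 0.873, 1.16, 0.626 and 1.56 CPM in 2i and 0.298, 0.721, 0.429 and 2.00 CPM with vitC, highest at 32 hr in both. The log2 fold change for 32 against 4 hr was 1.64 ± 0.69 (adjusted p = 0.096). With vitC alone the log2 ratio of 32 to 4 hr was 2.74 (1.20 to 4.73), and in 2i it was 0.84 (-0.19 to 1.90).

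**Figure D3:**
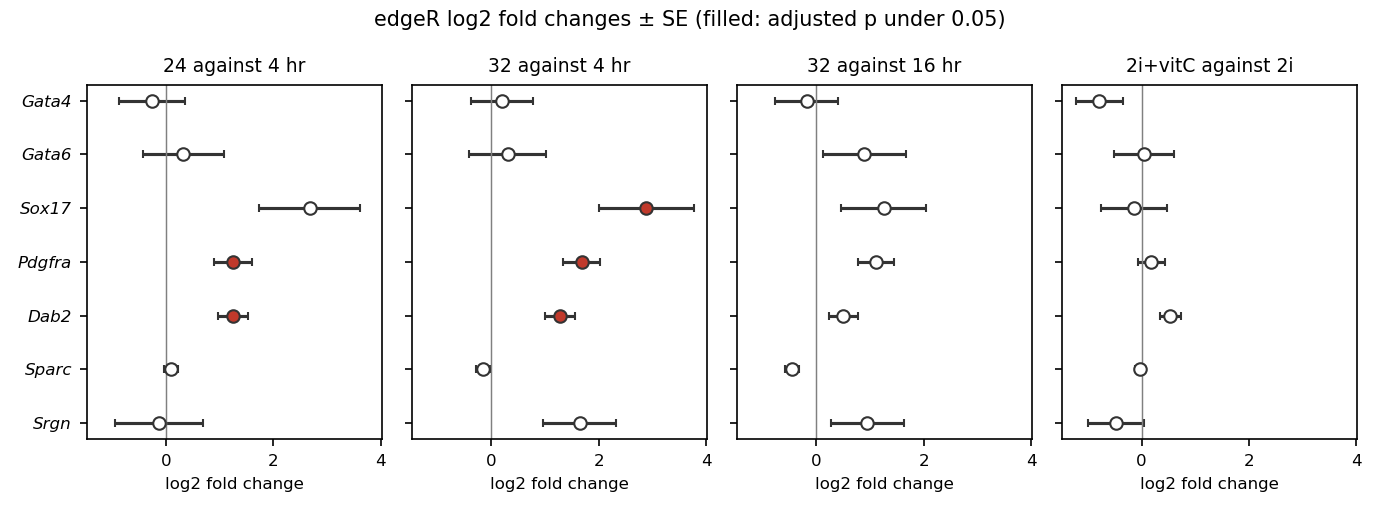
Log2 fold changes from the edgeR fit (points) with their standard errors (bars) for the 7 tested genes in 4 comparisons, filled where the adjusted p is under 0.05. Pdgfra and Dab2 are filled at 24 against 4 hr, these and Sox17 at 32 against 4 hr, and none at 32 against 16 hr or for vitC.

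With Sparc left out, the other 8 genes summed to 14.4, 18.2, 20.0 and 26.6 CPM in 2i at 4, 16, 24 and 32 hr. The sum with vitC was 11.3, 20.3, 33.7 and 35.0 CPM. Both courses were lowest at 4 hr and highest at 32 hr, and Dab2 and Pdgfra made up most of either sum. No test was made of this sum.

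vitC was compared with 2i at matched times. None of the 7 tested genes passed for vitC (1 at an unadjusted p under 0.05, 0 with DESeq2), against 0.167% of all genes called by edgeR (0.107% higher, 0.0603% lower). Of all 14931 genes, 2062 had an unadjusted p under 0.05 for vitC in edgeR, and DESeq2 called 299. None of the 7 passed for an interaction of vitC with hours (0 at an unadjusted p under 0.05, 0 with DESeq2), against 0% of all genes. For the interaction, 431 genes had an unadjusted p under 0.05 in edgeR, and DESeq2 called 1. In simulated counts the interaction test recovered 26% of 2-fold changes, among genes with a mean of at least 5 CPM. Gata4, Gata6, Sox17 and Srgn were below that mean. Of the 7, the gene with an unadjusted p under 0.05 for vitC was Dab2, at 0.54 ± 0.20 on the log2 scale (adjusted p = 0.24). At 4 hr its log2 ratio of vitC to 2i was 0.071 (-0.38 to 0.52), and at 16, 24 and 32 hr it was 0.50 (0.093 to 0.90), 1.12 (0.71 to 1.53) and 0.45 (0.14 to 0.76). Dab2 was therefore higher with vitC in 4 of 4 pairs, beyond counting error in 3 of them.

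Pdgfra had a log2 fold change of 0.18 ± 0.24 for vitC (adjusted p = 0.79), and its ratio was outside counting error at 32 hr alone (0.60, 0.20 to 1.01). Gata4 had -0.79 ± 0.44 (adjusted p = 0.46). Its ratio of vitC to 2i was -1.37 (-2.39 to -0.45) at 4 hr and -2.40 (-5.52 to -0.42) at 24 hr, but -0.030 (-0.99 to 0.85) at 16 hr and -0.20 (-1.09 to 0.68) at 32 hr. The sign of Sox17 differed between times, with -3.23 (-8.64 to -0.47) at 4 hr on 1 count against 12 and 2.21 (1.16 to 3.32) at 24 hr on 22 counts against 13. For Gata6 the ratio passed counting error at 32 hr alone (1.24, 0.031 to 2.57). Sparc differed by -0.02 ± 0.093 (adjusted p = 0.95), and its ratios at the 4 times lay between -0.11 and 0.062, those at 16 and 32 hr below 0 beyond counting error. The vitC libraries at 16 and 24 hr were also the shallowest, and all 3 later vitC libraries had a Lars2 share of 4.21% or more, which in 2i only the 24 hr library reached (5.92%). The part of depth and of this share in the vitC ratios was not tested library by library.

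The genes upstream and around these 9 were followed in 11 further lists. Of all tested genes, 11.5% were called higher and 8.98% lower at 24 against 4 hr. For 32 against 4 hr the shares were 13.5% and 11.8%. The counts of each list stand beside these shares, and no set test was made. Calls of genes other than the 9 come from the main fit and were not rechecked under the alternatives given below. Of 18 tested FGF ligands, FGF receptors and members of the ERK relay, 3 rose and 2 fell between 4 and 24 hr (median log2 fold change 0.05). Among the risers were Mapk3, which encodes ERK1 (0.84 ± 0.14, adjusted p = 0.0020), and Fgfr1 (0.60 ± 0.17), and Hras and Map2k2, which encodes MEK2, fell by 0.55 and 0.48 on the log2 scale. At 32 against 4 hr, Mapk3 (1.04 ± 0.14) and Hras (-0.51 ± 0.17, adjusted p = 0.047) passed again, whereas Fgfr1 was at -0.094 ± 0.17 (adjusted p = 0.73) and Map2k2 at -0.032 ± 0.13 (adjusted p = 0.89). Fgfr1 fell between 16 and 32 hr (-0.94 ± 0.17, adjusted p = 0.034). Fgf4, the ligand of the lineage decision, stood at 176 to 272 CPM with no call. Fgfr2, the receptor associated with primitive endoderm precursors and chosen here after its values were seen, rose by 32 hr (0.77 ± 0.17, adjusted p = 0.0074). The ligand gene Fgf8, chosen in the same way, fell by 32 hr (-1.59 ± 0.42, adjusted p = 0.016). At 32 against 4 hr, 2 of the 18 genes were thus higher and 2 lower. Of 10 tested ERK feedback and ETS genes, 2 fell and 1 rose by 24 hr. Etv4, an ETS factor induced by ERK, had 54.7 CPM in 2i and 59.3 CPM with vitC at 4 hr, and fell to 1.88 and 0.643 CPM by 24 hr (log2 fold change -5.38 ± 0.38), and Dusp4, an ERK phosphatase, changed by -3.55 ± 0.36. The riser was Spry2, an antagonist of receptor tyrosine kinase signalling (0.86 ± 0.21).

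Among 5 tested PDGF ligands and receptors, Pdgfra itself and Pdgfrb rose by 24 hr, the latter by 0.79 ± 0.22 (adjusted p = 0.025). By 32 hr the ligand genes Pdgfa (-0.63, adjusted p = 0.047) and Pdgfc (-1.03, adjusted p = 0.0024) had fallen. These were chosen after their values were seen. Of 8 other GATA and SOX genes tested, Sox2 (1.03 ± 0.15) and Sox4 (1.17 ± 0.16) rose by 24 hr and none fell. Sox2 is a pluripotency factor and not an endoderm gene. Gata5, a further GATA factor of endoderm, had at most 1 count.

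Among other genes of extraembryonic endoderm, more fell than rose. The list held 30 genes, of which 29 were found and 16 tested. Between 4 and 24 hr, 1 rose and 9 fell (median log2 fold change -0.89), and between 4 and 32 hr 3 rose and 9 fell (median -1.06). Stra6, a retinol transporter, had 0.582 CPM in 2i and 0.970 CPM with vitC at 4 hr and reached 4.39 and 6.65 CPM by 24 hr (2.83 ± 0.39, adjusted p = 0.00066). Neither 4 hr library of Stra6 reached the level of the filter, so this rise is not independent of it. Those with the largest falls were Spink1 (-4.36 ± 0.94, adjusted p = 0.0075), a trypsin inhibitor of visceral endoderm, Amn (-4.15 ± 1.36, adjusted p = 0.048), the partner of cubilin in visceral endoderm uptake, and Plat (-1.39 ± 0.30, adjusted p = 0.0077), the tissue plasminogen activator of parietal endoderm. Spink1 and Amn were low throughout, at most 7.09 and 1.28 CPM. Both reached 1 CPM only in the 4 hr libraries, so their falls are not independent of the filter. The counts and medians of this list therefore depend in part on the filter. The simple-epithelium keratin genes Krt8 and Krt18 fell as well, by 0.88 and 0.90 on the log2 scale from 741 and 761 CPM in 2i at 4 hr. They were chosen after their values were seen, and trophectoderm also expresses them.

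Basement membrane genes, which parietal endoderm expresses strongly but other epithelia and ESCs express too, rose in 6 of 13 tested cases by 24 hr, and none fell (median 0.44). The largest rises were Hspg2, which encodes perlecan (1.18 ± 0.26), the laminin chain gene Lamc1 (0.98 ± 0.14) and Nid2, which encodes nidogen 2 (0.86 ± 0.14). From 4 to 24 hr Hspg2 went from 49.0 to 73.1 CPM in 2i and from 48.9 to 175 CPM with vitC. By 32 hr Lamc1 (0.72 ± 0.14) and Nid2 (0.88 ± 0.14) were again among 6 genes higher than at 4 hr, and Hspg2 was not (0.36 ± 0.26, adjusted p = 0.34). Sparc, which belongs to the same matrix by function, was at 0.10 ± 0.13 for 24 against 4 hr. Of 15 tested epiblast and naive pluripotency genes 8 rose by 24 hr, led by Klf5 (1.97 ± 0.37), Dppa3 (1.41 ± 0.25) and Tfcp2l1 (1.08 ± 0.15), and Pou5f1 alone fell (-0.68 ± 0.13). At 32 against 4 hr, 8 were higher and 2 lower, namely Pou5f1 (-0.50 ± 0.13) and Zfp42 (-0.75 ± 0.17, adjusted p = 0.0078). Zfp42, named after its values were seen, was just short of the threshold at 24 hr (-0.51 ± 0.17, adjusted p = 0.052). For vitC, 0 genes of any of these lists passed in edgeR.

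**Figure D4:**
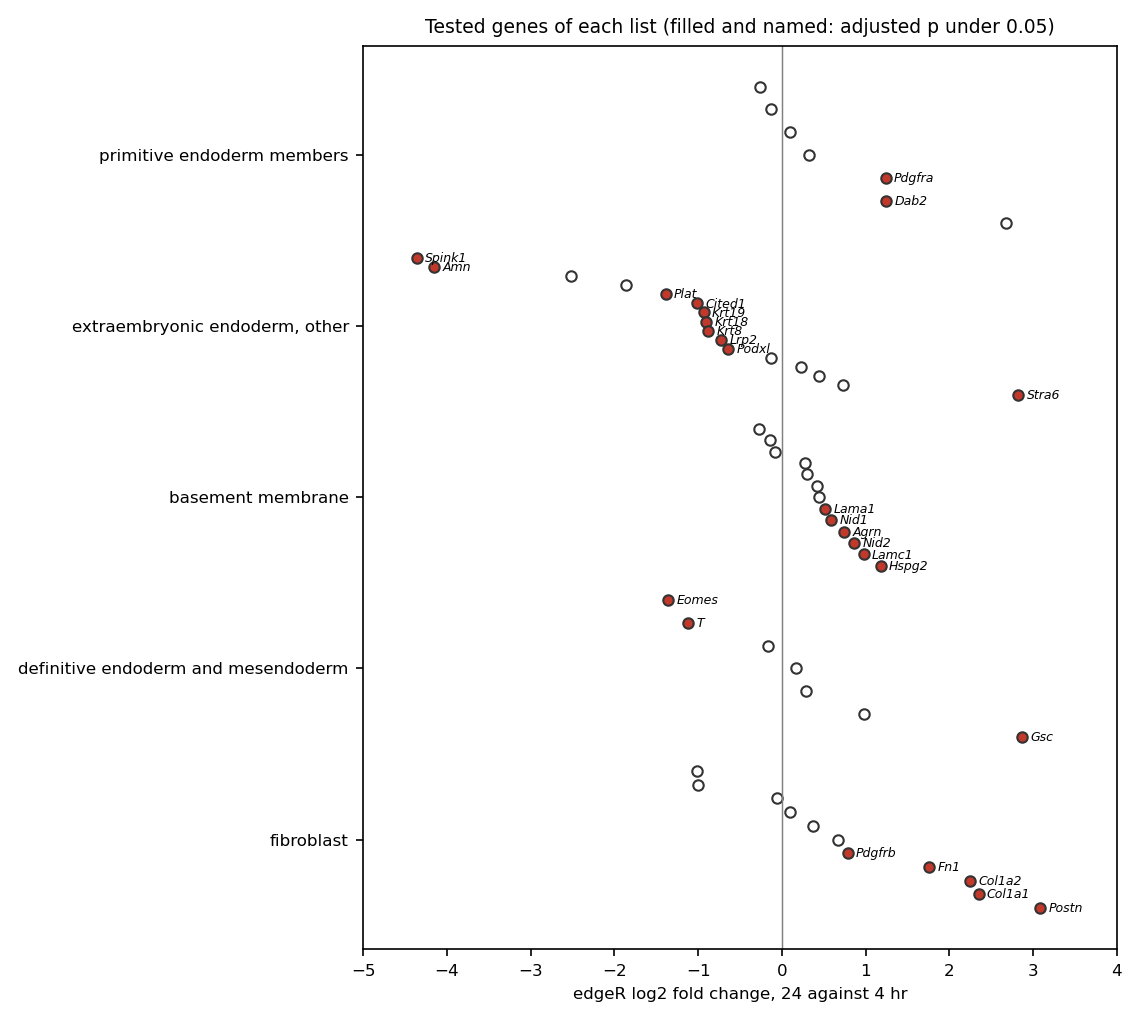
Log2 fold change of each tested gene for 24 against 4 hr in the primitive endoderm genes and 4 other lists, 1 point per gene, ordered by value within a list, with genes of an adjusted p under 0.05 filled and named. Of the 7 primitive endoderm genes 2 are filled and higher, of 16 other extraembryonic endoderm genes 9 are filled and lower and 1 higher, and all 6 filled basement membrane genes are higher.

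Several of the 9 genes are not particular to primitive endoderm, so markers of other cell types were measured beside them. Fibroblasts also express Pdgfra and Sparc. The summed level of 12 fibroblast genes was 336 and 340.3 CPM at 4 hr and 608 to 1680 CPM later, with 5 of 11 tested genes higher and none lower at 24 hr. Postn (3.08 ± 0.51), Col1a1 (2.35 ± 0.27) and Col1a2 (2.25 ± 0.19) led these. Postn was under 1 CPM in both 4 hr libraries (0.989 and 0.970 CPM), so its rise is not independent of the filter. Fn1 (1.76 ± 0.22), named after its values were seen, was also higher and made up most of the sum. Its level was 202 of the 340.3 CPM in 2i at 4 hr and 980 of the 1680 CPM with vitC at 24 hr. At 32 against 4 hr, 5 of the 11 were higher and 3 lower. Postn (3.10 ± 0.51), Col1a1 (1.36 ± 0.26) and Col1a2 (2.14 ± 0.18) were again higher, and Thy1 (-1.80 ± 0.47, adjusted p = 0.016), S100a4 (-2.31 ± 0.42, adjusted p = 0.0020) and Twist1 (-1.32 ± 0.36, adjusted p = 0.020), named after their values were seen, fell. Lum had at most 4 counts in a library, and Dcn and Col3a1 were at 0.315 to 3.00 and 4.25 to 9.58 CPM. Their part in the rise of Pdgfra was not tested.

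Sox17 and Foxa2 also mark definitive endoderm. Of 7 tested definitive endoderm and mesendoderm genes, Gsc, an organizer factor, rose at 24 hr (2.87 ± 0.62) from 0.407 and 0.298 CPM, and Eomes (-1.35 ± 0.42) and T (-1.13 ± 0.25) fell. Neither 4 hr library of Gsc reached the level of the filter, so its rise is not independent of it. Cer1 was at 0 in 6 libraries and had 7 and 3 counts at 32 hr, and Foxa1 had at most 5. Blood cells express Srgn, and of 5 tested blood and endothelial genes Pecam1, which ESCs express, rose by 24 hr (0.88 ± 0.15). By 32 hr, where Srgn was highest, Pecam1 was higher (1.28 ± 0.15), and Cd34 (-2.20 ± 0.58, adjusted p = 0.016) and Runx1 (-1.98 ± 0.46, adjusted p = 0.0083), named after their values were seen, had fallen. Ptprc had at most 7 counts and Lyz2 at most 3. Of 9 tested trophectoderm genes, Esx1 and Tfap2c rose and Cdx2 (-1.91 ± 0.37) and Ascl2 (-1.35 ± 0.36) fell, and Elf5 had at most 10 counts. Esx1 was under 1 CPM in both 4 hr libraries, so its rise is likewise not independent of the filter.

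For Pdgfra, Dab2 and Sparc, whose mean level reached 5 CPM, genes with the most similar course over the 8 libraries were taken from 11123 genes compared, by Pearson correlation of log2 CPM. Pdgfra was most like Fbln2 (r = 0.98), which encodes fibulin 2, a matrix protein, followed by Itpka (r = 0.97) and Meis1 (r = 0.97). Meis1, a homeobox factor, went from 5.12 to 15.7 CPM in 2i and from 4.85 to 16.8 CPM with vitC between 4 and 32 hr. Dab2 was most like Zkscan17 (r = 0.99), Nkain1 (r = 0.99) and Sik1 (r = 0.98). Sik1, a salt-inducible kinase, spanned 31.9 to 140 CPM. Genes most like Sparc included Idi1 (r = 0.99), at 4.92 to 8.99 CPM, and Fmr1 (r = 0.96), at 129 to 175 CPM. The correlation of Sparc with Pdgfra was -0.41 and with Dab2 -0.11. All these are descriptions over libraries that share lane, time and depth.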

How the data were processed

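RNA-seq was analysed in 8 libraries of E14 ESCs, 1 for each combination of 4 times and 2 treatments, grouped by the sample labels. After depletion of ribosomal RNA and TruSeq preparation (50 bp, single-end), the authors deposited raw read counts per Ensembl gene, without normalization. The submitters' processing notes name GSNAP, HTSeq and NCBIM37 (mm9), and the annotation release and strand setting are not given in the sources used here. The labels give the 2 inhibitors as 1 and 3 mM, the study's methods in µM. Lanes came from the names of the deposited data. GENCODE M21 gave symbols for 32604 of 37263 identifiers, and merged exon lengths.

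Counts were tested with edgeR 4.0.16 in R 4.3.3 (TMM, quasi-likelihood, Benjamini-Hochberg, threshold 0.05), after a filter of at least 1 CPM in at least 2 libraries. The additive model leaves 3 residual degrees of freedom, and an interaction of vitC with hours, linear per 10 hr, leaves 2. The code was tested on simulated data. Single counts have exact Poisson and ratios exact binomial 95% intervals.

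The 9 genes and the 12 lists, of which the 9 genes are 1, were chosen with earlier results of these data known. Named from each list were up to 3 genes with the largest rise and 3 with the largest fall called at 24 against 4 hr in the same direction in both treatments, and near-0 markers, and for Pdgfra, Dab2 and Sparc the 3 genes with the highest correlation. Some genes that this rule names are not reported here. Alternatives were DESeq2 1.42.0, other scalings, filters, models and prior counts, a GC content and exon length correction, omission of libraries and, chosen after seeing the data, the Lars2 share as a covariate.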

Additional observations from a re-analysis of the deposited data

How the results depend on the processing

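The labels give no replicate numbers, so no pairing by replicate was made. The vitC comparison was paired by time, and leaving out the time block left the count of members called at 0. With a library left out, the lone library of that time is assumed to vary like the others. The number of the 9 genes called moved by over 1.5 times in 8 alternatives. For 24 against 4 hr (2 called) the count was 1 (Dab2) after the GC content and exon length correction, 0 with the Lars2 share as a covariate, and 0 to 3 with a library left out, with 0 without the vitC library at 4 or at 24 hr. For 32 against 4 hr (3 called) it was 1 to 3 with a library left out, with 1 without the 2i library at 32 hr, the vitC library at 4 hr or that at 32 hr. For 16 against 4 hr (0 called) it was 1 (Dab2) without the filter on low counts. The cause was not tested. No other comparison changed its count of members.

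Fold changes changed sign in 26 alternatives, never with a call on either side. With a library or time left out, the log2 fold change of Gata4 ranged from -0.069 to 1.00 at 16 against 4 hr, -1.67 to 0.27 at 24 against 4 hr, -0.18 to 0.66 at 32 against 4 hr and -0.75 to 0.32 at 32 against 16 hr. That of Gata6 ranged from -1.14 to 0.28, -0.23 to 1.15 and -0.58 to 1.09 at 16, 24 and 32 against 4 hr, and from -0.44 to 0.44 for vitC. Srgn ranged from -0.59 to 0.78 at 24 against 4 hr, and for vitC Sox17 ranged from -1.02 to 0.31 and Sparc from -0.047 to 0.013. Under the Lars2 covariate it was -0.40 for Gata4 at 16 against 4 hr, -0.32 at 32 against 4 hr and 0.080 at 32 against 16 hr, and for vitC -0.091 for Gata6, 0.52 for Sox17 and 0.050 for Sparc. The vitC value of Sox17 was 0.25 without the time block, and that of Sparc 0.0050 after the GC content and exon length correction.

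Over all genes, the calls at 24 against 4 hr (3061) were 1891 without the treatment term, 87 with the Lars2 covariate and 748 to 3341 with a library left out. At 16 against 4 hr (2448) they were 1289, 801 and 647 to 2063, and at 32 against 4 hr (3785) they were 2451 with the covariate and 1403 to 4073 with a library left out. At 32 against 16 hr (87) they were 239 with DESeq2, 589 without the filter, 11 without the treatment term and 2 to 140 with a library left out. For vitC (25) they were 299 with DESeq2, 690 without the filter, 60 without the Lars2 features, 13 after the GC content and exon length correction, 0 in edgeR without the time block or with the covariate (1065 at an unadjusted p under 0.05 with the covariate), and 0 to 399 with a time left out. The interaction (0) gave 1 with DESeq2 and 5 without the filter. With 3 residual degrees of freedom and 1 library per condition, Sox7, Foxa2, Gata6 and Srgn had at most 24 counts in any library.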
